A study of Mus musculus with 62 samples.

Results

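The loci of the 5 Ikaros family genes were followed: Ikzf1 (Ikaros), Ikzf2 (Helios), Ikzf3 (Aiolos), Ikzf4 (Eos) and Ikzf5 (Pegasus). A site belonged to a locus when it overlapped the gene body or the 20 kb on either side of it (mm10, GENCODE M21). By this rule 490 of the 1743368 sites listed in 14 tables of differential CUT&Tag sites were members, 117 at Ikzf1, 90 at Ikzf2, 195 at Ikzf3, 53 at Ikzf4 and 35 at Ikzf5. The gene bodies lie at chr11:11685003-11772926 (Ikzf1, plus strand), chr1:69531214-69687245 (Ikzf2, minus), chr11:98464902-98546031 (Ikzf3, minus), chr10:128630843-128645991 (Ikzf4, minus) and chr7:131388652-131410521 (Ikzf5, minus). CUT&Tag maps a histone mark, a histone variant or a bound factor by tethering a transposase to the antibody, so that tagged DNA is read only near the antibody's target.

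Ikaros family proteins are zinc-finger transcription factors that bind DNA through N-terminal fingers, form dimers with one another through C-terminal fingers, and recruit the NuRD and other chromatin complexes. Ikaros is present from the stem cell onwards and is needed for lymphoid fate, whereas Aiolos appears later and is best known from B cells. Helios marks stem cells and regulatory T cells, Eos acts in regulatory T cells, and Pegasus is the most divergent and most widely expressed member.

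The cells were bone marrow haematopoietic stem and progenitor cells (HSPCs) of C57BL/6 mice, enriched by magnetic selection as lineage-negative and c-Kit-positive. WT mice were Daxx +/+ Cre +/-, Daxx-KO mice were Daxx F/F Cre +/-, and double-knockout (DKO) mice were Daxx F/F and also Pu.1 F/F, again with Cre +/-. All 3 genotypes carried Mx1Cre, a Cre driven by an interferon-inducible promoter that is not restricted to blood cells, and all had received pI:pC, so the controls shared the transgene and the exposure to its inducer. Daxx is a chaperone of the histone variant H3.3, and Pu.1, encoded by Spi1, is an ETS-family factor of myeloid and lymphoid cells. Mice were analysed at 3, 8 or 24 weeks post-induction (w.p.i.).

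At 3 w.p.i. Daxx-KO was set against WT for H3.3, Pu.1, H3K27ac and H3K9me3 (2 libraries a group), and at 24 w.p.i. for the same antibodies and H3K27me3 (2 a group). At 8 w.p.i. the H3K9me3 tables held Daxx-KO against WT, DKO against WT and DKO against Daxx-KO, and the H3K27me3 tables used here held DKO against WT and DKO against Daxx-KO (3 a group). H3K27ac marks active promoters and enhancers, H3K27me3 is the Polycomb mark and H3K9me3 the mark of constitutive heterochromatin. The 8 w.p.i. comparisons of one antibody share libraries, and at 8 and 24 w.p.i. the antibodies were run on the same mice. At 3 w.p.i. H3.3 and Pu.1 shared their numbered mice, so that gains of both at one place are not independent, and H3K27ac and H3K9me3 shared theirs. WT replicate 2 was 1 mouse for all 4 antibodies, whereas the Daxx-KO mice of H3.3 and Pu.1 were not those of H3K27ac and H3K9me3. The mouse of WT replicate 1 of H3.3 and Pu.1 is not numbered in the labels.

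Each table lists only sites that had passed the submitters' negative binomial test on 600 bp windows, with a normalized read count for every library. A stretch with no listed site therefore has no value, which does not say that it was unmarked or unaltered. A site is called gained where the mean of the first-named genotype was higher and lost where it was lower. With 2 against 2 libraries no exact permutation p can fall below 0.333, and with 3 against 3 none below 0.100, so no p is given for a site and every library's value is printed instead. The intervals given for shares are Wilson 95% intervals, which cover counting error only. They take neighbouring sites as independent and are no test of the members against a table.

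Depth, as mean reads per window, spanned 1.21 to 33.8 in the 16 libraries of 3 w.p.i. The 18 libraries of 8 w.p.i. spanned 0.21 to 3.28, and the 20 of 24 w.p.i. 3.97 to 10.3. WT replicate 2 was shallow at 3 w.p.i., with 3.06 against 22.88 mean reads per window for WT replicate 1 of H3.3 and 2.75 against 33.78 for Pu.1, and DKO replicate 2 of H3K9me3 had 0.21. On Daxx exons 2 to 7, which the floxed allele removes, the tables listed 3 sites, and all 3 were lost. H3K27ac there was 113 and 93.7 in the Daxx-KO libraries at 24 w.p.i. against 858 and 368 in WT, and 24.2 and 13.6 against 105 and 65.5 at 3 w.p.i. Pu.1 at 24 w.p.i. was listed at 0 in both Daxx-KO libraries against 63.3 and 44.2 in WT. The 8 w.p.i. tables listed no site at Daxx or Spi1, so they hold no check of the deletions in the DKO libraries. The label HSPC could not be checked by the level of marker genes, since unlisted stretches have no value.

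Sequences from the mouse reference genome (GRCm38.p6, the mm10 assembly) show the DNA of some stretches described below, each read 5′ to 3′. The first lies 17 kb upstream of Ikzf1, at chr11:11667551-11667850 (plus strand), where H3K27ac was gained at both times and Pu.1 at 24 w.p.i.; capitals mark GAGGAAGT, the core letters of Pu.1 binding patterns. The next 2 are the 250 bases before the annotated Ikzf1 starts that have an entry in the RefSeq promoter table, at chr11:11685675-11685924 and chr11:11689927-11690176 (plus strand), with CG in capitals.
Ikzf1 upstream: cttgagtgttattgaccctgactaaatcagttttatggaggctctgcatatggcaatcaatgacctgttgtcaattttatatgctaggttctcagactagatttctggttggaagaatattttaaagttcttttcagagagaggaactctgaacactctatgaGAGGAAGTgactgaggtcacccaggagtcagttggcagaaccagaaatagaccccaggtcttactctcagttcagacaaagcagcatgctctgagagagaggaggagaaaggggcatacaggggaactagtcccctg
Ikzf1 start 1: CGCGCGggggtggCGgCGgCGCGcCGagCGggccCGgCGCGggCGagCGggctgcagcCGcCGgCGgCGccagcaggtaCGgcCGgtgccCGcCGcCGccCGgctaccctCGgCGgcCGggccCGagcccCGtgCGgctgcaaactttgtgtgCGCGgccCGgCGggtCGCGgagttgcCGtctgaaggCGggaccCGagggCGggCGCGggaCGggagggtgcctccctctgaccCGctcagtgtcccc
Ikzf1 start 2: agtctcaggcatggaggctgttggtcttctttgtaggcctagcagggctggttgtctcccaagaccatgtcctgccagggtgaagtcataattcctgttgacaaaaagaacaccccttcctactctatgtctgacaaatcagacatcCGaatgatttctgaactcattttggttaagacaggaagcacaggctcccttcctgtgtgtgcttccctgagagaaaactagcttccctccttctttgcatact
The start 1 sequence holds 44 CG, at 82.0% G and C, whereas the start 2 sequence holds 1, against a median of 6.00 CG over 32851 promoter windows of the same 250 bases. Of the 5 members only Ikzf1 and Ikzf5 had entries in that table.

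The next 2 sequences lie on the minus strand, the strand of Ikzf2 and Ikzf3. The Ikzf2 stretch, at chr1:69665151-69665350 in an intron, is where Pu.1 was gained while H3.3 and H3K27ac were lost at 24 w.p.i., with CG in capitals. The Ikzf3 stretch, at chr11:98550526-98550825, lies about 5 kb upstream of the gene start. In Daxx-KO against WT, H3K27ac was lost there at 3 and 24 w.p.i. and H3K27me3 gained at 24 w.p.i. In DKO against WT, H3K27me3 was called gained there at 8 w.p.i., with overlap of the groups. Capitals mark TTCCCA, the reverse complement of TGGGAA, the core letters bound by Ikaros proteins.
Ikzf2 intron: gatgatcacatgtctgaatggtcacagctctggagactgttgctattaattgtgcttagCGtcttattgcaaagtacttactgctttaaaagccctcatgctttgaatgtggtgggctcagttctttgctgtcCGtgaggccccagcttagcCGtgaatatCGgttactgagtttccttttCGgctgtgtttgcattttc
Ikzf3 upstream: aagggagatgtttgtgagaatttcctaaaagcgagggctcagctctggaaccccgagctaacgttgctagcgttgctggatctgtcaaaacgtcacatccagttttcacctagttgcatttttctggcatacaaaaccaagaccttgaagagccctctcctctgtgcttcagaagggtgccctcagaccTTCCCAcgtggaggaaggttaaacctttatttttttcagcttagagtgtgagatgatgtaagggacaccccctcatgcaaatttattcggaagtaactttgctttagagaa

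Both patterns were searched on both strands in the central 600 bp of the members' Pu.1 sites. GAGGAAGT was in 2 of the 28 sites at 3 w.p.i. (7.14%; 4.23% of all listed Pu.1 sites) and in 1 of the 63 at 24 w.p.i. (1.59%; 4.16% of all). TGGGAA was in 42.9% and 41.3% of them, against 44.8% and 45.7% of all listed sites. Among the 32851 promoter entries, whose sequences were searched whole and not as a central 600 bp, 3.20% held GAGGAAGT and 25.6% held TGGGAA. Such a share depends on the length searched, so these are not compared with the shares of the sites. The sites with GAGGAAGT were the upstream stretch above and these 2, shown as 30 bases of the plus strand with the pattern in capitals. The Ikzf1 stretch, at chr11:11686204-11686233 in a 5′ exon, came from a gained site, and the Ikzf2 stretch, at chr1:69606955-69606984 in an intron, from a lost site that held the pattern a second time.
Ikzf1 5′ exon: gtgagcaacttGAGGAAGTcattgtgaaag
Ikzf2 intron, lost Pu.1 site: ctcaggatgatGAGGAAGTtcttatggggc
A match describes the letters only and is not a shown binding site.

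In all, 257 of the 490 sites were gained and 233 lost, and the libraries of the groups did not overlap at 466. Over all listed sites 53.1% were gained, and 95.2% had groups that did not overlap. By gene, 40 sites were gained and 77 lost at Ikzf1, 37 and 53 at Ikzf2, 132 and 63 at Ikzf3, 29 and 24 at Ikzf4, and 19 and 16 at Ikzf5. Per 100 kb, Ikzf3 had the most sites (161), followed by Ikzf4 (96.1), Ikzf1 (91.5), Ikzf5 (56.6) and Ikzf2 (45.9). These sums mix tables that differ in gained share. Of the 77 losses at Ikzf1 41 were H3K27ac at 24 w.p.i., and of the 132 gains at Ikzf3 38 and 24 were H3K27me3 in the 2 DKO comparisons, which share libraries.

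**Figure D1:**
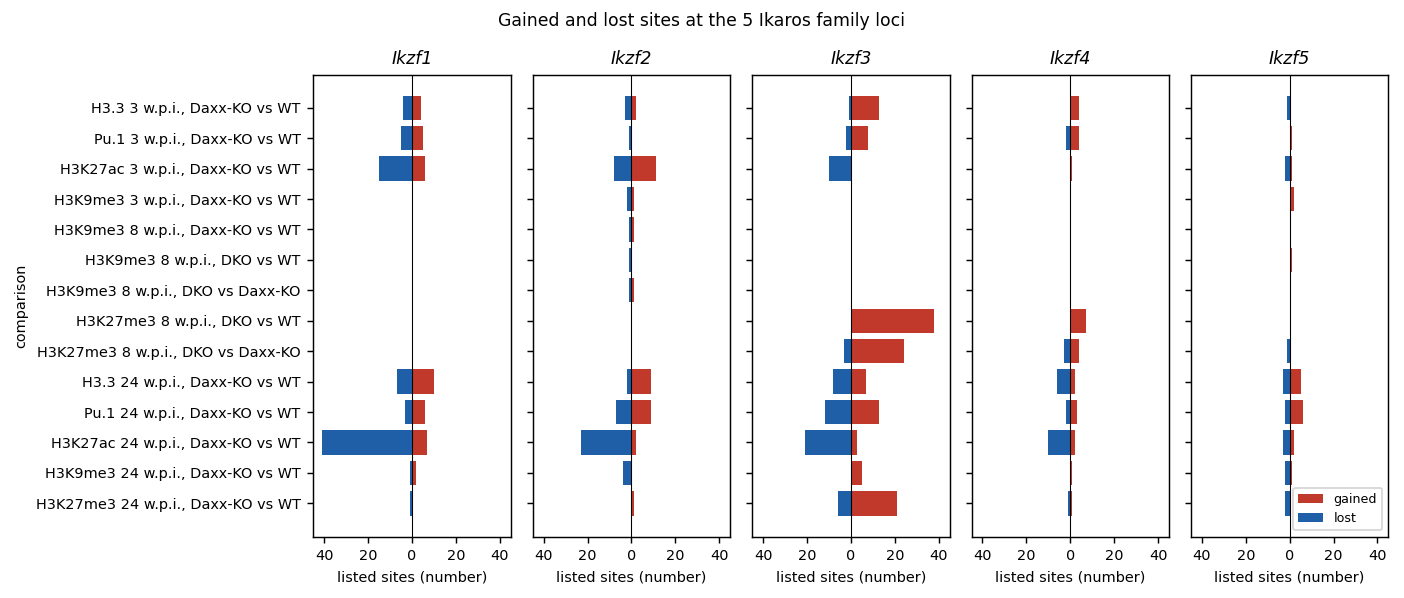
Number of listed sites gained (red, to the right) and lost (blue, to the left) at each locus, by comparison. H3K27me3 sites gained in DKO stood almost only at Ikzf3 (38 and 24) with some at Ikzf4 (7 and 4), and H3K27ac sites lost at 24 w.p.i. were most numerous at Ikzf1 (41).

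H3K27ac and H3K27me3 were the marks with the most uneven calls. At 24 w.p.i., 98 of the 114 H3K27ac sites of the 5 loci were lost and 16 gained, a gained share of 14.0% (8.83 to 21.6%) where 42.5% of all listed H3K27ac sites were gained, and 45.4% of those at or above the members' median level. With a flank of 50 kb the gained share was 25.1% (42 of 167). At 3 w.p.i. 19 of 54 were gained (35.2%, 23.8 to 48.5%), against 41.5% of all listed sites and 54.8% of those at or above the members' median level. H3K27me3 went the other way. All 45 sites listed for DKO against WT at 8 w.p.i. were gained (100%, 92.1 to 100%; 56.1% of all), as were 28 of 35 for DKO against Daxx-KO (80.0%, 64.1 to 90.0%; 65.3% of all) and 23 of 33 for Daxx-KO against WT at 24 w.p.i. (69.7%, 52.7 to 82.6%; 41.2% of all). Of all listed H3K27me3 sites at or above the members' median level, 57.7%, 60.8% and 49.6% were gained, in the same order of comparisons. Most of the member sites stood at Ikzf3. Of the members, libraries did not overlap at 109 of the 114 H3K27ac sites of 24 w.p.i. (97.3% of all listed sites) and at 51 of the 54 of 3 w.p.i. (97.6%). For H3K27me3 the counts were 42 of 45 (89.6% of all), 30 of 35 (84.3%) and 32 of 33 (97.6%), so separation was about as common over each whole table as at the members.

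H3.3 and Pu.1 calls were closer to the tables as a whole. At 3 w.p.i. 23 of 32 H3.3 sites were gained (71.9%; 59.4% of all) and 18 of 28 Pu.1 sites (64.3%; 56.0% of all). At 24 w.p.i. the counts were 33 of 59 for H3.3 (55.9%; 52.6% of all) and 37 of 63 for Pu.1 (58.7%; 48.2% of all). The intervals of all 4 shares held the share of their table. This is no test, since neighbouring sites of the same mice are not independent. WT replicate 2 was listed at 0 in 6 of the 23 gained H3.3 sites and in 7 of the 18 gained Pu.1 sites at 3 w.p.i., and the part of its low depth in these gains was not tested. Libraries did not overlap at 32 of 32 H3.3 sites (98.4% of all listed) and 26 of 28 Pu.1 sites (98.1%) at 3 w.p.i., and at 56 of 59 (98.3%) and 63 of 63 (98.2%) at 24 w.p.i.

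H3K9me3 sites were few: 3 of 5 gained at 3 w.p.i. (60.0%; 78.9% of all), 1 of 2 in each 8 w.p.i. comparison (50.0%; 65.2%, 81.4% and 73.4% of all for Daxx-KO against WT, DKO against WT and DKO against Daxx-KO) and 9 of 16 at 24 w.p.i. (56.2%; 48.1% of all). They were listed most often at Ikzf2. Libraries did not overlap at 5 of 5 (99.6% of all), 2 of 2 (89.1%), 1 of 2 (65.7%), 1 of 2 (69.8%) and 16 of 16 (97.2%).

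Ikzf1 lost H3K27ac across its body and downstream flank at 24 w.p.i. and gained it beside its start and 17 kb upstream. Of 48 listed H3K27ac sites there, 41 were lost and 7 gained, and together they covered 40.5% of the window. The lost sites came to 32.1 per 100 kb, a density that 0.207% of 20780 autosomal protein-coding genes reached. At 3 w.p.i. 15 were lost and 6 gained. The lost sites at 24 w.p.i. had log2 ratios from -3.01 to -0.35, with a median of -1.18, and at 37 of the 41 the libraries did not overlap.

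The deepest loss lay past the 3′ end, 95.2 kb from the gene start at chr11:11779401-11780950, where the Daxx-KO libraries had 21.7 and 22.0 normalized reads and the WT libraries 162 and 189.9. Daxx-KO was 8.05-fold lower, and each of its libraries lay below each WT library. Next to it, at chr11:11776201-11778150, H3K27ac was 119 and 169.8 in Daxx-KO against 474 and 439.8 in WT. That stretch was also listed at 3 w.p.i., with 29.1 and 13.6 in Daxx-KO against 58.0 and 67.3 in WT. At chr11:11781751-11783000, the values were 149.9 and 285 against 480.3 and 479. Daxx-KO was the lower group at all these places, with no overlap.

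Within the introns the widest loss was at chr11:11718251-11721100, 34.7 kb into the gene, with 301 and 303 in Daxx-KO against 582 and 517 in WT. Nearer the 3′ end, at chr11:11765101-11767450, the Daxx-KO libraries had 123 and 87.8 and the WT libraries 351 and 343, a 3.29-fold difference. The site with the highest H3K27ac of the intronic losses, at chr11:11729801-11730800, had 845 and 504 in Daxx-KO against 801 and 915 in WT. Its groups overlapped, since Daxx-KO replicate 1 was above WT replicate 1. Of the 21 sites of the 3 w.p.i. table, 12 (57.1%) overlapped a site called in the same direction at 24 w.p.i., as did 15 of the 48 later ones (31.2%).

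The gain upstream of Ikzf1 was present at both times. The stretch lies inside Gm11999, a non-coding gene on the other strand that starts at chr11:11685400, beside the Ikzf1 start. At chr11:11667401-11668300, 17.2 kb upstream, H3K27ac at 3 w.p.i. was 207 and 171 in Daxx-KO against 104 and 75.0 in WT. At 24 w.p.i. the stretch was listed as 2 sites, with 141 and 138 against 88.2 and 91.8 at chr11:11667201-11667900 and 132 and 145 against 80.4 and 92.5 at chr11:11668151-11668750. Every Daxx-KO library was above every WT library at each of them, by 2.11-fold, 1.547-fold and 1.60-fold in the means. The same stretch gained Pu.1 at 24 w.p.i., with 90.0 and 52.2 in Daxx-KO against 0 and 4.21 in WT. The sites of both antibodies shared 400 bp, which hold the printed sequence with GAGGAAGT. No Pu.1 site was listed there at 3 w.p.i.

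**Figure D2:**
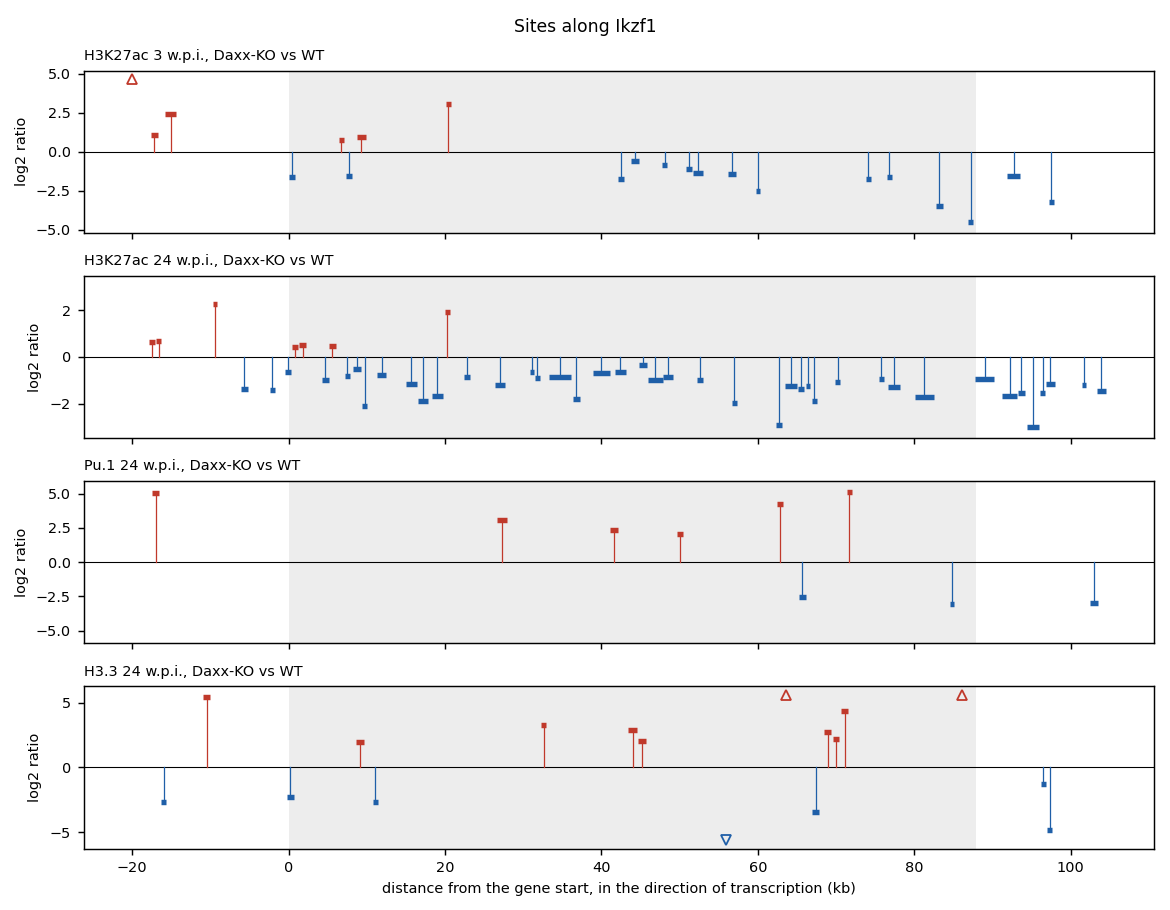
Sites along Ikzf1 by distance from the gene start (kb; grey, gene body), with the log2 ratio of Daxx-KO over WT on the vertical axis. Bars span the site, red gained and blue lost, and open triangles mark sites where a group was listed at 0 in both libraries; H3K27ac losses run through the body and downstream flank, with gains 17 kb upstream and near the start.

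At the Ikzf1 start the marks moved in different ways at the 2 times. Gm11999 starts in the same region, so sites across both starts cannot be given to either gene. At 3 w.p.i. H3.3 was gained at chr11:11685301-11686450, with 69.5 and 165 in Daxx-KO against 35.1 and 7.86 in WT, and Pu.1 at chr11:11685651-11686550, with 87.4 and 38.9 against 15.7 and 19.2. H3K27ac at the overlapping site chr11:11685101-11685800 was lost, with 45.5 and 28.0 against 89.2 and 141. The libraries of the groups did not overlap at any of the 3 sites. Just upstream, at chr11:11683751-11684850, Pu.1 was lower in Daxx-KO (37.8 and 57.5) than in WT (101 and 163).

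At 24 w.p.i. H3K27ac was gained on the 3′ side of the GENCODE gene start, over and past the printed start 1 sequence. It was 679 and 667 in Daxx-KO against 565 and 433 in WT at chr11:11685451-11686250, and 528 and 553 against 384 and 377 at chr11:11686351-11687250. Both were among the strongest H3K27ac sites of the family, and both ratios were small (1.35-fold and 1.42-fold) with separate groups. The site at the second start, chr11:11690151-11691150, had 899 and 584 in Daxx-KO against 514 and 562 in WT, so that Daxx-KO replicate 2 stood close to WT. Directly on the GENCODE gene start and upstream of the start 1 sequence, at chr11:11684601-11685300, H3K27ac was lost (189 and 203 against 334 and 275).

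Other marks at the same start were also listed at 24 w.p.i. H3K27me3, the Polycomb mark, was low and lost, with 4.79 and 4.6 in Daxx-KO against 36.4 and 29.98 in WT. H3K9me3 was gained, with 25.5 and 55.2 in Daxx-KO against 0 and 1.87 in WT, and H3.3 was lost at chr11:11684751-11685600 (1.1 and 27.2 against 59.0 and 76.2). The groups were separate at all 3 sites, and no other H3K27me3 site was listed at Ikzf1 in any table. Over the whole locus H3.3 was gained at 10 sites and lost at 7 at 24 w.p.i., and no H3.3 site overlapped one of the same direction at 3 w.p.i.

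Markers of other cell types moved in the same H3K27ac comparison at 24 w.p.i., within 1 kb of their transcript starts. All 4 neutrophil markers (Ly6g, Mpo, Elane, S100a8; Mpo and Elane are also expressed by myeloid progenitors) had gained sites (8 gained, 0 lost). The erythroid genes Hbb-bs, a globin, and Klf1, an erythroid transcription factor, had 2 and 3 lost sites and 0 gained. More sites were also lost than gained at the T cell and mast cell genes. The direction of the H3K27ac sites lost at the members was therefore not particular to the erythroid genes. Of the 6 HSPC genes 5 had a gained site (14 gained, 6 lost), and 3 gained and 2 lost sites stood at the 3 B cell genes, 1 and 3 at the 3 T cell genes and 1 and 2 at the 2 mast cell genes. At 3 w.p.i. 2 of the 4 neutrophil genes had a gained site, and Hbb-bs and Klf1 had 1 lost site each. Their part in the H3K27ac losses at the 5 loci was not tested, and in bulk samples fewer cells of a type and less signal per cell cannot be told apart.

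Ikzf3 gained H3K27me3 through its gene body and both flanks in DKO cells at 8 w.p.i. All 38 sites listed for DKO against WT were gained, and they covered 41300 bp, 34.1% of the window. Their density of 31.4 per 100 kb was reached by 0.164% of the 20780 genes. Log2 ratios ran from 1.05 to 3.60 with a median of 1.91, and the libraries did not overlap at 35 of the 38. For DKO against Daxx-KO, 24 sites were gained and 3 lost (19.8 gained per 100 kb, reached by 0.366% of genes). The 2 comparisons share the DKO libraries and were normalized separately.

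The site with the highest H3K27me3 of this comparison lay on the Ikzf3 start, at chr11:98544001-98548600, 4600 bp wide. H3K27me3 there was 1051, 652 and 635 in the DKO libraries against 289.5, 420.3 and 198 in the WT libraries, 2.58-fold higher in DKO. Every DKO library was above every WT library, and DKO replicate 1 was the highest. The sites on either side had the same order, with 232, 278 and 294 against 108, 163 and 107 at chr11:98541751-98543900 and 130.2, 67.2 and 139 against 44.6, 53.4 and 48.1 at chr11:98548751-98550150. No site was listed over the start itself for DKO against Daxx-KO.

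In the body, the site at chr11:98497401-98498450 had 34.0, 40.2 and 25.1 in DKO against 6.12, 3.62 and 6.71 in WT. In the other table the same bases had 37.7, 46.2 and 28.5 in DKO against 0, 2.17 and 4.61 in Daxx-KO. At the internal start 56.3 kb into the gene it had 30.6, 22.7 and 55.6 in DKO against 5.25, 9.96 and 10.1 in WT, and 44.0, 40.2 and 69.5 against 4.94, 17.4 and 1.32 in Daxx-KO. The DKO libraries were the highest at all these places. Among the 3 sites lost against Daxx-KO, the strongest, at chr11:98532401-98533350, had 25.1, 27.1 and 40.9 in DKO against 138, 38.0 and 61.2 in Daxx-KO, with overlap of the groups.

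Daxx-KO alone also gained H3K27me3 at Ikzf3 by 24 w.p.i., with 21 sites gained and 6 lost (17.3 gained per 100 kb, reached by 3.77% of genes). The gained sites had a median log2 ratio of 0.98, and the libraries did not overlap at any of the 27. The gained site with the most reads, past the 3′ end at chr11:98458201-98459700, had 952 and 731 in Daxx-KO against 513 and 543 in WT. Beside it, at chr11:98460151-98462150, the values were 751 and 662 against 434 and 458, and 4 kb upstream of the start, at chr11:98549201-98550900, they were 465 and 448 against 202 and 304. The Daxx-KO libraries were above the WT libraries in each case, by 1.60-fold, 1.58-fold and 1.81-fold.

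The start itself differed. At chr11:98545301-98545900, 0.4 kb inside the gene, H3K27me3 was 296 and 288 in Daxx-KO against 339 and 458 in WT at 24 w.p.i., a loss of 1.37-fold. At chr11:98546951-98547600, 1.2 kb upstream, it was gained, with 278 and 211 against 159 and 178. Of the 38 sites gained in DKO against WT, 18 (47.4%) overlapped a site gained in Daxx-KO at 24 w.p.i. Of the 27 later sites, 16 (59.3%) overlapped one of the earlier in the same direction, and 3 overlaps were in opposite directions. Since all 38 and most of the 27 were gained, most overlaps had to be in the same direction. The share over all listed H3K27me3 sites was not computed. The comparison of Daxx-KO with WT for H3K27me3 at 8 w.p.i. was not used here. Among the marker genes in the 24 w.p.i. H3K27me3 table, 3 of the 4 neutrophil, 2 of the 3 T cell and 3 of the 6 HSPC genes had a lost site within 1 kb of a start, and 1 HSPC and 1 B cell gene a gained one. Klf1 had 1 lost site and Hbb-bs 0. In DKO against WT at 8 w.p.i. the listed marker sites were all gained, 2 at HSPC genes, 2 at the B cell gene Pax5 and 1 at a T cell gene. In DKO against Daxx-KO, 2 sites were gained and 1 lost at HSPC genes. There Pax5 had 2 lost sites and 0 gained, and the neutrophil gene Mpo had 1 lost site. Their part in the H3K27me3 gain at Ikzf3 was not tested.

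**Figure D3:**
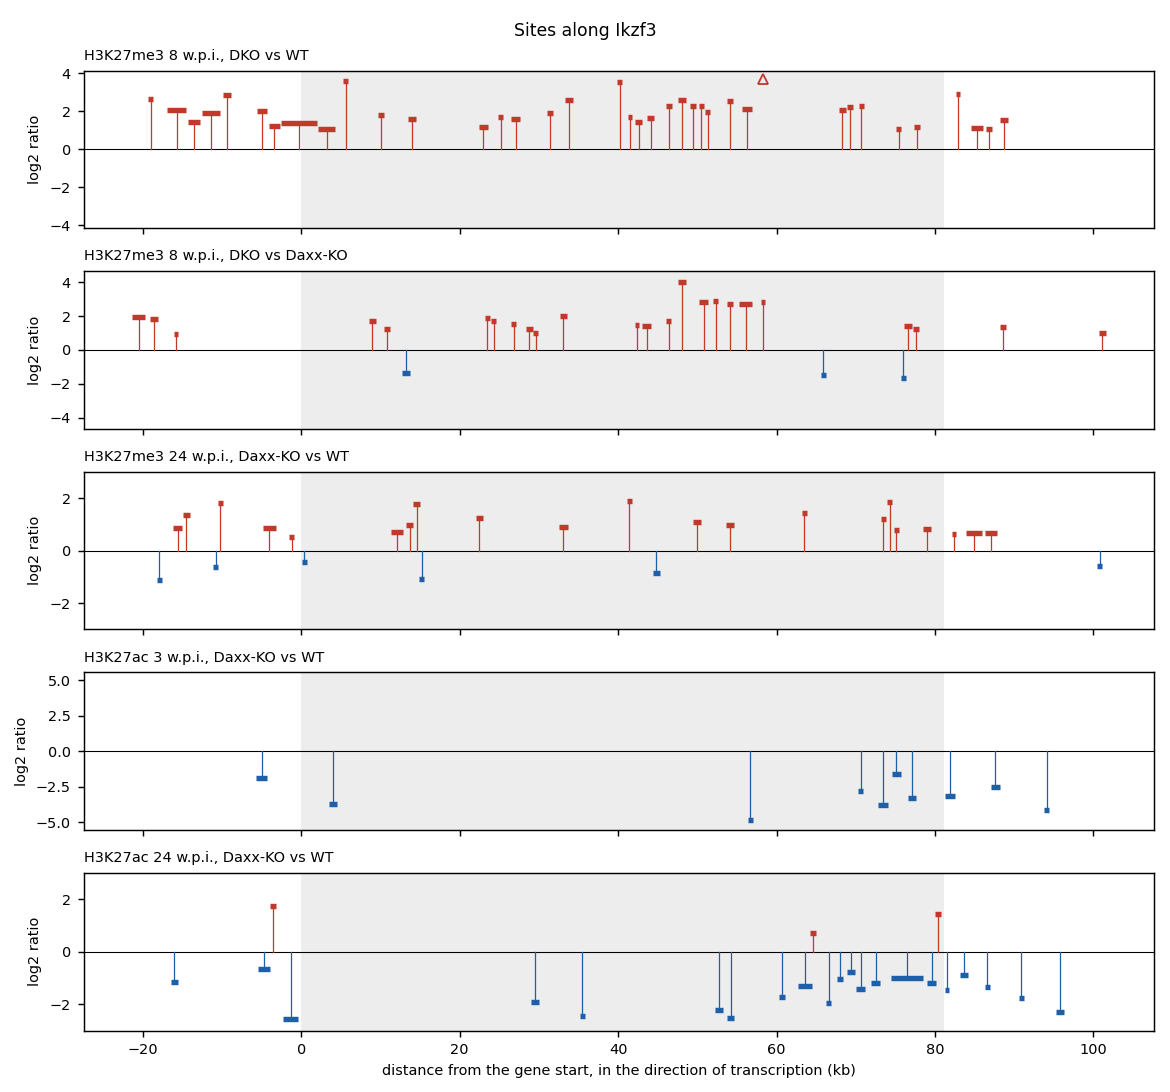
Sites along Ikzf3 by distance from the gene start (kb; grey, gene body), with the log2 ratio of the first-named over the second-named genotype on the vertical axis. Bars span the site, red gained and blue lost, and the open triangle marks a site listed at 0 in all 3 WT libraries; H3K27me3 gains stand throughout the window at 8 w.p.i. and H3K27ac losses crowd the 3′ part of the gene.

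H3K27ac was lost at Ikzf3 at both times. At 3 w.p.i. 10 sites were lost and 0 gained, and at 24 w.p.i. 21 were lost and 3 gained. The broadest and strongest H3K27ac site of the family, near the 3′ end at chr11:98467551-98471550, had 519 and 579.6 in Daxx-KO against 1222 and 999.9 in WT, 2.02-fold lower. In the same place at 3 w.p.i., chr11:98470351-98471450 had 25.2 and 11.0 against 66.6 and 43.0, and chr11:98468501-98469400 had 1.94 and 3.4 against 16.1 and 35.3. The Daxx-KO libraries were the lower ones at all 3 sites. Of the 10 early sites 6 (60.0%) overlapped a site lost at 24 w.p.i.

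The upstream stretch whose sequence is printed above is also near the start of Zpbp2, a gene expressed in sperm, which begins about 5 kb upstream of Ikzf3 on the other strand. At chr11:98550001-98551550 H3K27ac was 483 and 471 in Daxx-KO against 869 and 628 in WT at 24 w.p.i. At 3 w.p.i. the overlapping site at chr11:98550351-98551650 had 25.2 and 15.3 in Daxx-KO against 32.2 and 120.2 in WT, where WT replicate 1 was close to the Daxx-KO libraries. H3K27me3 over it was 212, 123 and 18.5 in DKO against 27.1, 24.5 and 36.9 in WT at 8 w.p.i., and there DKO replicate 3 was below every WT library. These sites shared 450 bp with the H3K27me3 site of 24 w.p.i. given above. Just upstream of the Ikzf3 start, at chr11:98546351-98548250, H3K27ac was 10.5 and 46.8 in Daxx-KO against 108 and 232 in WT.

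Bases gaining H3K27me3 and losing H3K27ac met at Ikzf3 more than once. Of its 27 H3K27me3 sites at 24 w.p.i., 10 (37.0%) overlapped a H3K27ac site of opposite direction and 1 (3.70%) a site of the same direction. Since most H3K27me3 sites there were gained and most H3K27ac sites lost, most overlaps had to be opposite. At chr11:98491401-98492450, 54.1 kb into the gene, 4 antibodies met on 600 bp: H3K27me3 was gained (69.4 and 84.6 against 41.1 and 37.1) and so was Pu.1 (56.6 and 80.5 against 20.1 and 10.5). H3K27ac there was lost (18.7 and 17.6 against 111 and 100.5) and H3.3 was lost (22.1 and 7.92 against 135 and 57.4). The libraries did not overlap for any of the 4.

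H3.3 was gained at 13 Ikzf3 sites and lost at 1 at 3 w.p.i., and Pu.1 gained at 8 and lost at 2. Of the H3.3 gains 7 lay in the 3′ flank, which also holds Grb7, the gene of a signalling adaptor protein. The site at chr11:98447151-98447950 had 47.4 and 70.0 in Daxx-KO against 16.1 and 5.24 in WT at 3 w.p.i., and the overlapping site at chr11:98446701-98447900 had 69.5 and 201 against 24.0 and 0 at 24 w.p.i. Daxx-KO was above WT in every library at both times. Of the 14 H3.3 sites at 3 w.p.i., 6 (42.9%) overlapped a H3K27ac site, all 10 of which were lost there. At 24 w.p.i. H3.3 was gained at 7 and lost at 8, and Pu.1 gained at 13 and lost at 12.

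The clearest late losses of H3.3 and Pu.1 at Ikzf3 lay in the flanks. At chr11:98563601-98564550, 18.0 kb upstream, H3.3 was 2.21 and 0 in Daxx-KO against 196 and 52.6 in WT, and Pu.1 next to it, at chr11:98562851-98563750, was 27.3 and 5.22 against 135 and 47.4. Downstream, at chr11:98453401-98454900, Pu.1 was 30.7 and 14.6 against 210.1 and 128. Each pair of groups was separate. In the other direction, Pu.1 at chr11:98456951-98458400 was gained at 3 w.p.i. (121 and 101 against 49.1 and 9.59) and again within it, at chr11:98457301-98457950, at 24 w.p.i. (32.7 and 62.7 against 2.88 and 8.42). H3K9me3 was gained at 5 Ikzf3 sites at 24 w.p.i. and lost at 0, the strongest at chr11:98539351-98540550 with 104 and 206 against 62.2 and 65.6.

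Ikzf2 lost H3K9me3 13.0 kb upstream of its start in Daxx-KO at all 3 times. At 3 w.p.i. the site at chr1:69699801-69700650 had 33.7 and 23.3 in Daxx-KO against 64.8 and 65.5 in WT. At 8 w.p.i. chr1:69699151-69700650 had 28.9, 48.7 and 40.1 against 98.0, 126 and 67.4, and at 24 w.p.i. chr1:69700001-69700600 had 80.3 and 62.5 against 119.7 and 128. The Daxx-KO libraries were below all WT libraries each time, by 2.28-fold, 2.47-fold and 1.74-fold. H3K9me3 was the one mark for which Daxx-KO and WT were compared at all 3 times. The stretch is wholly repeat-masked sequence, as were 13.5%, 9.64% and 3.92% of all listed H3K9me3 sites at the 3 times, and reads of such sequence can be shared with its other copies.

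H3K9me3 inside the gene was gained at chr1:69623151-69623750 at 3 w.p.i., with 15.1 and 18.3 in Daxx-KO against 2.63 and 5.8 in WT. At 8 w.p.i. the overlapping site had 19.0, 34.0 and 13.4 against 4.74, 9.28 and 9.99. Both had low counts and separate groups. In DKO a neighbouring stretch, chr1:69620901-69622200, was lost, with 0, 10.4 and 6.13 against 44.5, 47.8 and 35.1 in WT and, in the other table, 0, 9.81 and 5.83 against 50.6, 32.9 and 47.7 in Daxx-KO. The site gained beside it against Daxx-KO, at chr1:69622501-69623100, had 0, 42.5 and 1.46 in DKO against 5.96, 3.99 and 4.61 in Daxx-KO, so that it rested on DKO replicate 2, the shallowest library, and without that library DKO was the lower group.

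A place 22 kb into Ikzf2 brought 3 antibodies together at 24 w.p.i. Pu.1 was gained at chr1:69664751-69665950, with 282 and 125 in Daxx-KO against 20.1 and 2.11 in WT, the highest gained Pu.1 site of the family. H3.3 in the same bases was listed at 0 in both Daxx-KO libraries against 33.2 and 81.8 in WT, and H3K27ac was lost, with 8.24 and 19.0 against 50.3 and 37.2. The bases common to all 3 are the 200 bp printed above. Pu.1 at Ikzf2 was gained at 9 sites and lost at 7 at 24 w.p.i., against 0 and 1 at 3 w.p.i.

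H3.3 at Ikzf2 was gained at 9 sites and lost at 2 at 24 w.p.i. The highest was in a stretch with coding exon, chr1:69538001-69539400, with 159 and 138 in Daxx-KO and 0 listed in both WT libraries. A loss past the 3′ end was listed at both times. At chr1:69517401-69518350 H3.3 was 7.9 and 29.5 in Daxx-KO against 94.7 and 83.8 in WT at 3 w.p.i., and at chr1:69516851-69517950 it was 0 and 2.26 against 97.8 and 131 at 24 w.p.i. Groups were separate both times.

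H3K27ac at Ikzf2 differed between the times. At 24 w.p.i. 23 sites were lost and 2 gained, with median log2 ratio of the losses -1.39 and separate groups at all 23. Around the start, chr1:69687901-69689500 had 111 and 127 in Daxx-KO against 191 and 251 in WT, and chr1:69680101-69682750 had 119 and 168 against 326 and 268. In both cases WT was higher in each library. At 3 w.p.i. 11 sites were gained and 8 lost. The gains were led by Daxx-KO replicate 2, as at chr1:69655751-69657200 with 115 and 279 in Daxx-KO against 101 and 69.5 in WT, and without that library the counts were 9 and 10. H3K27me3 was listed once at Ikzf2, gained 2 kb upstream at 24 w.p.i. (71.8 and 38.6 against 17.7 and 12.8).

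**Figure D4:**
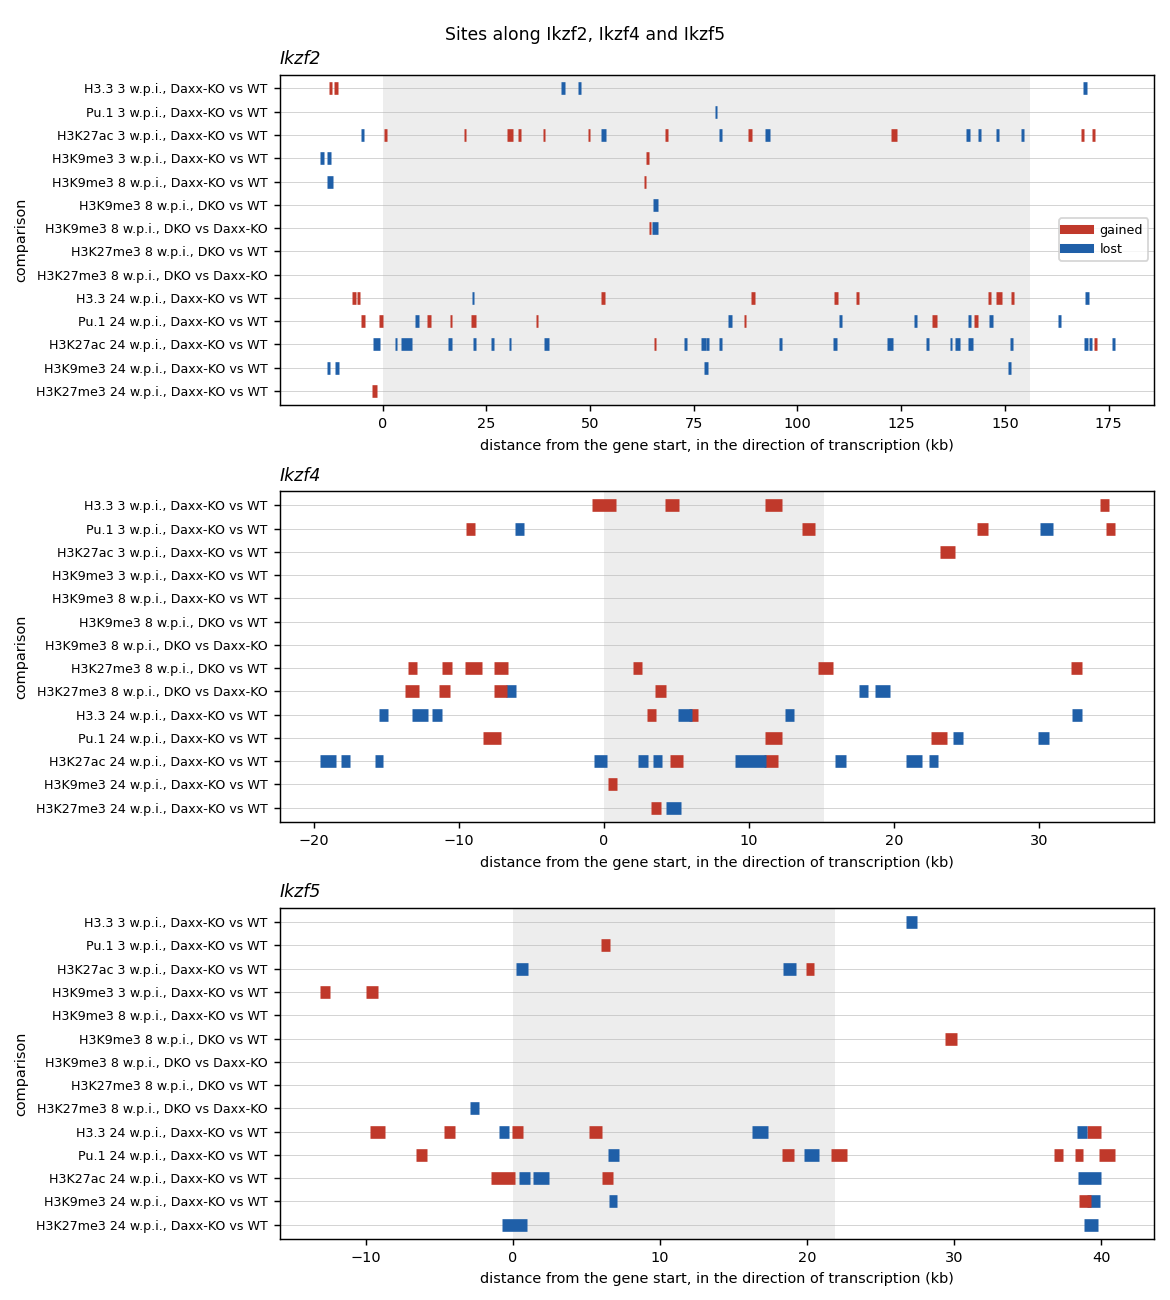
Positions of gained (red) and lost (blue) sites along Ikzf2, Ikzf4 and Ikzf5 by distance from the gene start (kb; grey, gene body), a line per comparison. At Ikzf2 the H3K9me3 losses stack 13 kb upstream at 3, 8 and 24 w.p.i. and H3K27ac losses run along the gene at 24 w.p.i.

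Ikzf4, the shortest of the loci, gained H3.3 at its start at 3 w.p.i. and lost H3K27ac at 24 w.p.i. At chr10:128645201-128646850, across the start, H3.3 was 155 and 143 in Daxx-KO against 57.5 and 0 in WT. The 0 came from the shallow WT replicate 2, but WT replicate 1 was also below both Daxx-KO libraries. That site also spans the start of Gm26876, a non-coding RNA gene on the other strand, at chr10:128645884. Sites across both starts cannot be given to either gene. A second gain, in coding exon at chr10:128633701-128634900, had 152 and 124 against 35.8 and 26.2. All 4 H3.3 sites of 3 w.p.i. were gained, whereas at 24 w.p.i. 2 were gained and 6 lost, and 1 of the lost ones overlapped an early gain.

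Pu.1 at the same exon of Ikzf4 was gained at 24 w.p.i., at chr10:128633751-128634900, with 139 and 71.0 in Daxx-KO against 2.88 and 3.16 in WT. Downstream, over the pseudogene Gm9182, Pu.1 was lost at both times, with 37.8 and 28.4 against 66.8 and 182 at chr10:128615051-128615950 at 3 w.p.i. and 0 and 4.18 against 51.8 and 35.8 at chr10:128615351-128616100 at 24 w.p.i. WT was the higher group at that place each time.

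H3K27ac at Ikzf4 was lost at 10 sites and gained at 2 at 24 w.p.i. (18.1 lost per 100 kb, reached by 9.56% of genes). The strongest, chr10:128634851-128637000, had 50.2 and 61.5 in Daxx-KO against 241 and 142 in WT. At the start, chr10:128645701-128646600, it was 29.2 and 39.5 against 118 and 30.9, and the groups overlapped because WT replicate 2 was as low as Daxx-KO. H3K9me3 appeared on the start at 24 w.p.i., with 41.4 and 43.8 in the Daxx-KO libraries and 0 listed in both WT libraries.

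H3K27me3 at Ikzf4 was gained in DKO against WT at 7 sites and lost at 0 (12.7 per 100 kb, reached by 3.71% of genes), all with low counts. Near the start, chr10:128643351-128643950 had 23.8, 24.4 and 28.3 in DKO against 14.9, 6.34 and 13.4 in WT. Against Daxx-KO, 4 were gained and 3 lost. About 7 kb upstream, inside the non-coding RNA gene Gm49782, chr10:128652601-128653550 had 17.0, 38.4 and 29.4 in DKO against 11.4, 3.62 and 2.24 in WT. The 650 bp next to it, chr10:128652051-128652700 in the same gene, had 2.51, 2.01 and 2.48 in DKO against 24.7, 9.78 and 20.4 in Daxx-KO. In Daxx-KO at 24 w.p.i. 1 site was gained (148 and 133 against 66.3 and 91.4 at chr10:128642051-128642750) and 1 lost (75.8 and 71.8 against 116 and 124 at chr10:128640651-128641650). At both, H3K27ac went the opposite way.

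Ikzf5 shares its start region with Acadsb, an acyl-CoA dehydrogenase gene that begins 80 bp away on the other strand, so its sites cannot be given to either gene. At chr7:131409551-131411250, across both starts, H3K27me3 was 97.3 and 73.6 in Daxx-KO against 187 and 234 in WT at 24 w.p.i., 2.46-fold lower. On the Acadsb side, chr7:131410451-131412050, H3K27ac was gained, with 359.7 and 419 against 232 and 256. On the Ikzf5 side, chr7:131409301-131410050, it was lost, with 30.7 and 22.0 against 70.4 and 123. The groups were separate at all 3 sites, so that the H3K27ac calls point in opposite directions on the 2 sides of the shared start.

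The loss on the Ikzf5 side was also listed at 3 w.p.i., at chr7:131409551-131410350, with 18.4 and 17.0 in Daxx-KO against 49.4 and 55.2 in WT. H3.3 followed the same split at 24 w.p.i. in the reverse sense, gained inside Ikzf5 at chr7:131409851-131410550 (44.2 and 79.2 against 23.1 and 9.4) and lost on the Acadsb side at chr7:131410751-131411450 (19.9 and 12.4 against 48.0 and 56.4). Pstk, a kinase gene acting on selenocysteine tRNA, starts in the downstream flank. Beside its start, 39.2 kb from the Ikzf5 start, H3K27ac was lost (96.7 and 130.3 against 203 and 298), and sites of the other 4 antibodies overlapped the loss at 24 w.p.i. Ikzf5 had 1 H3.3 site and 1 Pu.1 site at 3 w.p.i., against 8 of each at 24 w.p.i.

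**Figure D5:**
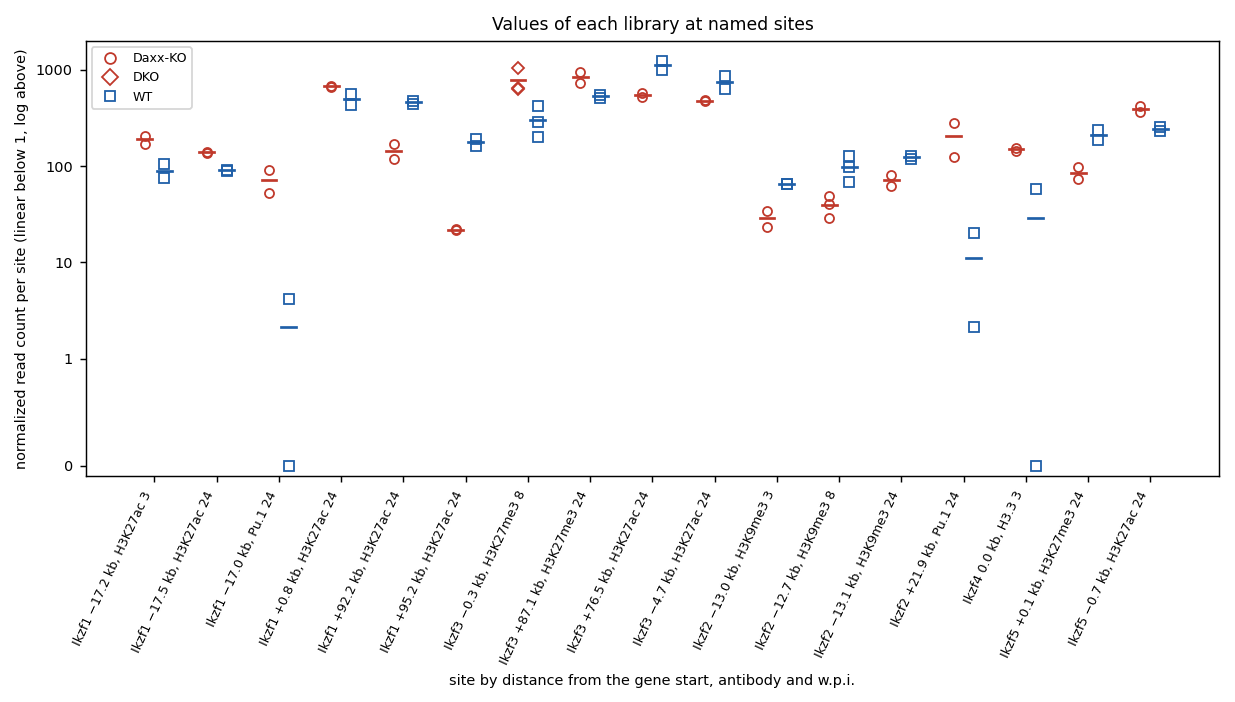
Normalized read count of every library (points) and the group means (lines) at sites named in the text, by locus, antibody and w.p.i.; the vertical axis is linear below 1 and logarithmic above, red circles mark Daxx-KO, red diamonds DKO and blue squares WT. Groups are separate at every site shown, although WT replicate 2 of H3.3 at the Ikzf4 start sits at 0.

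Across the family, sites near transcript starts were a small part. Within 1 kb of an annotated start stood 11 sites of Ikzf1, 4 of Ikzf2, 15 of Ikzf3, 4 of Ikzf4 and 7 of Ikzf5. Of the 54 H3K27ac sites of 3 w.p.i., 22 (40.7%) overlapped a site of the same direction at 24 w.p.i. (24 of 114, 21.1%), and 5 (9.26%) one of the opposite direction. Over all autosomal H3K27ac sites of 3 w.p.i. these shares were 23.6% and 16.1%. Of the 32 H3.3 sites of 3 w.p.i. 4 (12.5%) overlapped in the same direction (16.4% of all), and of the 28 Pu.1 sites 4 (14.3%; 16.8% of all). H3K9me3 sites of 3 and 8 w.p.i. overlapped in the same direction at 2 of 5 and 2 of 2, and the share over all listed sites was not computed. The numbered mice of 3 and 24 w.p.i. are different ones.

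Genes of other proteins in the pathway were followed by counts. List A holds genes of chromatin proteins that work with Ikaros proteins, subunits of the NuRD, Sin3 and CtBP co-repressors and the SWI/SNF ATPase Smarca4. It also holds Crbn, the ligase receptor through which drugs degrade Ikaros and Aiolos in human cells. Together these are 19 genes. They (Chd3, Chd4, Mta1, Mta2, Mta3, Hdac1, Hdac2, Rbbp4, Rbbp7, Mbd2, Mbd3, Gatad2a, Gatad2b, Ctbp1, Ctbp2, Sin3a, Sin3b, Smarca4 and Crbn) gave 81.6% gained H3.3 sites at 3 w.p.i. (59.4% of all) and 22.2% gained H3K27ac sites (41.5% of all). H3K27ac sites were mostly lost at 17 of these 19 genes at 3 w.p.i. and mostly gained at 0. At 24 w.p.i. their H3K27ac share was 46.3%, and H3K27me3 was mostly lost at 16 of them (27.3% gained; 41.2% of all). Mta1, a NuRD subunit, had the most sites (185) and Rbbp7, a histone-binding subunit on the X chromosome, which the 24 w.p.i. tables leave out, the fewest (19). The 5 members had a gained H3K27ac share of 35.2% at 3 w.p.i. and 14.0% at 24 w.p.i., and the difference from the list was not tested.

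The 12 lymphoid genes on which Ikaros proteins act (list B: Igll1, Vpreb1, Dntt, Rag1, Rag2, Il7r, Flt3, Ebf1, Foxo1, Cd79b, Hes1 and Notch3) had mostly gained H3K27ac at 3 w.p.i. at 8 genes and mostly lost at 2 (78.4% of 102 sites gained; 41.5% of all). At 24 w.p.i. 6 were mostly gained and 6 mostly lost (51.9%; 42.5% of all). In DKO against WT, H3K27me3 was gained at 43 of their sites and lost at 75 (36.4%; 56.1% of all), which Ebf1 set, with 8 gained and 73 lost. The other 11 genes had 35 gained and 2 lost (94.6%), but these sites were not spread evenly over them. Of the 12 genes 4 were mostly gained, 1 mostly lost and 7 even or without a listed site. With Foxo1 alone left out, the gained share of the list was 20.2%. Ebf1, an early B cell factor, had the most sites (388), and Il7r, the interleukin-7 receptor, and Rag1, a recombinase, the fewest (37 each). Both lists are described by counts only.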

How the data were processed

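CUT&Tag had been run on HSPCs with antibodies to H3.3, Pu.1, H3K27ac, H3K9me3 and H3K27me3. The series holds 62 samples, of which 54 libraries enter the 14 tables used. The 24 w.p.i. DKO libraries were not used here, and neither was the 8 w.p.i. H3K27me3 table that sets Daxx-KO against WT. The submitters' processing notes name CASAVA 1.8.4, cutadapt 1.13, STAR 2.5.3 and bedtools, with mm10.

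The authors ran diffReps 1.55.6 on each comparison, per the file headers, with 600 bp windows moved by 50 bp, a fragment size of 100, a gap size of 0 and a negative binomial window p-value cutoff of 0.0001. Windows that passed were joined to sites, so the tables are lists of differences and hold no unaltered region. Each deposited normalized count is the reads of a library at the site divided by that library's constant, set separately in each table, so levels were compared only within a table. The deposited average signal is the group mean of these counts. Tables at 24 w.p.i. hold no sites on the X and Y chromosomes. The deposited log2 fold change, p-value and adjusted p-value columns hold the authors' own comparisons. None is printed, and only the adjusted p-value was read, as a filter of 0.05 in 1 alternative.

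Groups were taken from the sample labels. From the counts, group means, folds, log2 ratios, direction and overlap of the groups were computed per site (Python 3.11.15, numpy 2.4.6, pandas 2.3.3, scipy 1.17.1, matplotlib 3.10.9), and all 6 checks on 4000 simulated sites passed. Gene models were GENCODE M21. The authors' selection of sites on these libraries makes direction at a site a description, with no test. Depth, as mean reads per window, sets the precision of each value, and counts of low libraries move in large steps.

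The members and lists were chosen with earlier results of these data known. Sites were named by a rule: the gained and the lost site with the highest mean in each table, sites within 1 kb of a member's transcript start, sites repeated in direction at another time, and places where sites of 3 or more antibodies overlapped. This gave 194 sites, those with higher means being described, and more of them than the 30 the rule set as its limit. Outside the rule, and chosen after their values were seen, are the Pu.1 gain 17 kb upstream of Ikzf1 and the H3K27ac losses 34.7, 81.3 and 95.2 kb from its start, the H3K27ac loss 5.8 kb into Ikzf2 and its H3K27me3 site, the 8 w.p.i. H3K27me3 sites of Ikzf3 beside its start and 48 kb into it, and at Ikzf4 the exon gains of H3.3 and Pu.1, the strongest H3K27ac loss and the H3K27me3 pair 7 kb upstream. Alternatives varied the flank, the sites taken, the size of the difference, the signal, the joining of neighbours and the libraries. The result of 1 marker gene is not reported here.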

Additional observations from a re-analysis of the deposited data

Results flagged for a closer look

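At 10 pairs of sites the same antibody was called in opposite directions at 3 and 24 w.p.i. on shared bases, with every Daxx-KO library on one side of every WT library at the first time and on the other side at the second. The difference between the times was not tested, and the tables of the 2 times were normalized separately. Such reversals were no more frequent here than elsewhere. With or without separate groups, 12.5% of the members' H3.3 sites of 3 w.p.i. overlapped a site of opposite direction at 24 w.p.i. (15.6% of all autosomal sites). For Pu.1 the share was 7.14% (18.0% of all), and for H3K27ac 9.26% (16.1% of all).

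At Ikzf1, H3.3 at the start was gained and then lost (300 bp shared), and 44.0 kb and 45 kb into the gene it was lost and then gained (800 bp and 500 bp). H3K27ac at the Ikzf1 start was lost and then gained (350 bp), and 9 kb into the gene it was gained and then lost at a pair of later sites (450 bp and 500 bp).

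At Ikzf2, H3K27ac gained at 3 w.p.i. was lost at 24 w.p.i. 123 kb (450 bp) and 31 kb (650 bp) into the gene. Pu.1 was gained and then lost 13 kb upstream of Ikzf3 (450 bp) and 6 kb into Ikzf5 (150 bp).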

How the results depend on the processing

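Of 150 alternatives for the gained share at the 5 loci in the 14 comparisons, 143 left the share within its counting interval and 7 moved it. Of the 7, 6 concern H3K9me3 tables with at most 5 member sites. Without the flank, the gained share became 100% in Daxx-KO against WT at 3 w.p.i. and at 8 w.p.i. and 0% in DKO against WT (1 site each). With a higher mean of at least 20 it became 0% at 3 w.p.i. (2 sites) and in DKO against Daxx-KO (1 site). Leaving out libraries in turn, the share in DKO against Daxx-KO ranged from 0 to 50.0%, the 0 being without DKO replicate 2. With a flank of 50 kb the H3K27ac share at 24 w.p.i. was 25.1% (42 of 167), a window that takes in more neighbouring genes. Leaving out 1 library otherwise gave H3K27ac shares at 24 w.p.i. between 14.0 and 14.9% and at 3 w.p.i. between 31.5 and 35.2%, H3.3 at 24 w.p.i. between 55.9 and 57.6% and Pu.1 at 3 w.p.i. between 60.7 and 67.9%. Where groups do not overlap a left-out library cannot turn the direction, so these ranges are narrow by construction and show no stability. No paired analysis was possible because the shares come from counts of listed sites and from no test. The tables hold only sites already called different, 2 or 3 libraries a group allow no p under 0.05 by permutation, and DKO replicate 2 of H3K9me3 is the shallowest library.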
